A study of Mus musculus with 12 samples.

Results

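Oxidative phosphorylation runs on 5 protein complexes of the inner mitochondrial membrane, and their subunits are encoded in both the nucleus and the mitochondrial genome. The genes described here were those whose symbol named a subunit (Nduf, Sdh, Uqcr, Cyc1, Cox4 to Cox8 and Atp5 families) or that lay on the mitochondrial genome, with 10 or more counts in at least 3 of the 9 libraries used. Of 92 nuclear genes matched by name, 88 passed, and 13 genes of the mitochondrial genome passed, which gave 101 of 15322 genes passing the same count minimum. The 4 that did not pass were Cox7b2 and Cox8c, whose counts reached at most 2 and 0, Ndufb11b, which reached 11, and a second row for Atp5o (Atp5o_1), which had no count. Among the 88 nuclear genes, 82 encode structural subunits. The other 6 carry a matching name but have another role, namely Sdhaf1, Sdhaf2, Sdhaf3 and Sdhaf4, which assist the assembly of complex II, Ndufa4l2, a paralogue of Ndufa4, and Cox7a2l, which helps complexes assemble into supercomplexes.

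RNA came from whole retinas of C57BL/6J mice aged 8 to 10 weeks, all with the optic nerve of the left eye crushed and all collected 2 days later. After the crush the eye received 1 intravitreal injection of PBS as control, of the HMG-CoA reductase inhibitor fluvastatin, of matrix-bound nanovesicles (MBV) prepared from porcine urinary bladder, or of both agents, with 3 samples per group. The combined treatment was not analysed here, because the count columns of its table do not name their libraries. The 3 PBS, 3 fluvastatin and 3 MBV libraries held 26325065 to 30992040, 23634662 to 27098889 and 21349516 to 26738043 counts. The labels do not say whether the 3 samples of a group came from separate animals, so p-values measure only the spread between these samples. The PBS libraries carry numbers of one set, and the fluvastatin and MBV libraries numbers of another, so treatment and set cannot be told apart in any comparison with PBS. In bulk retina, fewer cells of a type and less RNA per cell cannot be told apart either.

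Complex I (NADH dehydrogenase) and complex II (succinate dehydrogenase) feed electrons into the respiratory chain, complex III (cytochrome bc1) passes them to cytochrome c, complex IV (cytochrome c oxidase) hands them to oxygen, and complex V (ATP synthase) uses the resulting proton gradient to make ATP. Complex II is encoded wholly in the nucleus, whereas the others combine nuclear subunits with subunits made inside the mitochondrion. Photoreceptors, whose inner segments are packed with mitochondria, are among the most oxygen-demanding cells of the body. Nuclear subunit genes are known to share binding sites for a few regulators at their promoters, among them nuclear respiratory factor 1 (NRF1), the ETS-family factor GABP and YY1.

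The promoters of 72 of the 88 nuclear genes were found in the RefSeq table used (build GRCm38.p6), each as a window of 250 bases before to 50 bases after the gene's start. Windows were searched on both strands for the NRF1 motif GCGCNTGCG, the ETS motif CCGGAAG and the YY1 motif AAGATGGCG (hits of different motifs overlapped in 2 of all windows). The windows of all RefSeq genes, set beside them, were neither limited to the genes tested here nor matched for GC content. The NRF1 motif was in 24 of the 72 windows (33.3%) and in 6.59% of all 27025 windows, the ETS motif in 19 (26.4%) against 9.12%, and the YY1 motif in 6 (8.33%) against 1.49%. At least 1 of these motifs was in 55.6% of the nuclear members' windows and in 15.5% of all windows. Among members lower with MBV, 23 of 45 windows held one, and among those not called with MBV, 17 of 27. The promoters of Sdhd, Sdha, Cox6b1 and Ndufb7 are shown because they show how the motifs sit near the start in the former pair, which fell with MBV, and in the latter pair, which rose with fluvastatin, and that of Atp5g3 is shown because it had the smallest p among the nuclear members in both comparisons with PBS. The 250 bases before each start are printed 5′ to 3′ on the gene's strand in GRCm38.p6 coordinates, and capitals mark the motifs.
Sdhd, chr9:50603850-50604099, minus strand: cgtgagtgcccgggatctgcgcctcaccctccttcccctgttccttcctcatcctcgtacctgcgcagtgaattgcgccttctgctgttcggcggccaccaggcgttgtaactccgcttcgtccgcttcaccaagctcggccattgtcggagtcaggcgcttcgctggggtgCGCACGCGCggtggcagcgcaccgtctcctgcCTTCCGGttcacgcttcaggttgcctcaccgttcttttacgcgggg
Sdha, chr13:74350241-74350490, minus strand: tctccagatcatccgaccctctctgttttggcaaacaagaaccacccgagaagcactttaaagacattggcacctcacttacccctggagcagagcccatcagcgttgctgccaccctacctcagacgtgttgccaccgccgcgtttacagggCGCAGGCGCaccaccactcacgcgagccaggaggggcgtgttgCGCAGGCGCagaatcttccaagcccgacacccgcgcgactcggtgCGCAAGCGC
Cox6b1, chr7:30626115-30626364, minus strand: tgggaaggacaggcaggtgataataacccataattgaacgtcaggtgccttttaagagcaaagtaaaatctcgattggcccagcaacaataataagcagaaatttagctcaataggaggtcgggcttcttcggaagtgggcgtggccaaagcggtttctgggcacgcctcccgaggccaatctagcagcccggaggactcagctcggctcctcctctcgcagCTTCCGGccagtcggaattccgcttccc
Ndufb7, chr8:83566508-83566757, plus strand: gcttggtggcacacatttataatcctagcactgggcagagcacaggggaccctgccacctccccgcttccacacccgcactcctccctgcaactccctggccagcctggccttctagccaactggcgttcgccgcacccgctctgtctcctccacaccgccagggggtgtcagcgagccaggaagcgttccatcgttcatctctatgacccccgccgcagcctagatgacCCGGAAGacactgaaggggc
Atp5g3, chr2:73911327-73911576, minus strand: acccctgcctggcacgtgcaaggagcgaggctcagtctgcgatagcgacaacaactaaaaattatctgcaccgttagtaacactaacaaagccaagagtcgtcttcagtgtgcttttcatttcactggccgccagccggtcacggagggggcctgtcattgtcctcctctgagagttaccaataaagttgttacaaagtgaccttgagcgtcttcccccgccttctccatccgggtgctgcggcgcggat
The Sdhd stretch held 1 NRF1 and 1 ETS motif, the Sdha stretch 3 NRF1 motifs, and the Cox6b1 and Ndufb7 stretches 1 ETS motif each. The Atp5g3 stretch held none, though its full window, which runs 50 bases past the start, holds an NRF1 motif. A match describes these letters only and says nothing about whether a factor is bound.

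The question for each comparison was whether subunit genes differed between a treated group and PBS after injury. With fluvastatin, 33 of 88 nuclear members were lower and 7 were higher, whereas 12.1% of all genes tested were called lower, 12.2% higher and 24.4% in either direction (edgeR's quasi-likelihood test, Benjamini-Hochberg FDR under 0.05). With MBV, 55 of 88 were lower and 1 was higher, against 17.4% lower, 15.9% higher and 33.2% in either direction among all genes. The lower calls thus made up 37.5% of nuclear members with fluvastatin and 62.5% with MBV. The changes were small: the median log2 fold change of the nuclear members was -0.13 with fluvastatin and -0.27 with MBV, where the median over all genes was 0.00 and 0.01. Point estimates lay below zero for 67 and 79 of the 88 members. Both comparisons use the same 3 PBS libraries.

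The per-library medians show that the treated groups lay below PBS and that 1 MBV library stood apart. Relative to the PBS mean, the median over nuclear members was 0.01, -0.04 and 0.03 on the log2 scale in the 3 PBS libraries. Fluvastatin libraries stood at -0.11, -0.12 and -0.16. MBV libraries stood at -0.28, -0.34 and -0.15, so MBV replicate 3 lay near the fluvastatin libraries. This library also stood apart in some cell type markers. Lyz2, a myeloid gene, measured 55.2 CPM there against 6.2 and 3.3 in the other MBV libraries, and the summed myeloid markers stood at 156 CPM, above all PBS libraries (41.1 to 62.0). Glul, the glutamine synthetase of Müller glia, measured 1941 CPM there against 1146 and 613, and Vim, their intermediate filament, 133 against 246 and 330. Glul also varied within fluvastatin (1979, 1045 and 817 CPM), and its level in MBV replicate 3 lay within the PBS range. Of the other Müller glia markers, Aqp4 and Dkk3 were highest in MBV replicate 3 among the MBV libraries. Kcnj10 lay between the others, and Rlbp1, Slc1a3, Sox9 and Gfap were lowest. The part of these differences in the subunit results was not tested. Without MBV replicate 3, 68 members were lower and 1 higher. Without PBS replicate 1, the calls with fluvastatin fell to 17 (14 lower, 3 higher), and without fluvastatin replicate 2, PBS replicate 2 or PBS replicate 3 they were 24, 26 and 26. When each gene's statistic was divided by the median inflation over all genes (5.43 for fluvastatin and 7.02 for MBV), edgeR called 0 nuclear members, with 11 and 16 at an unadjusted p under 0.05.

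**Figure D1:**
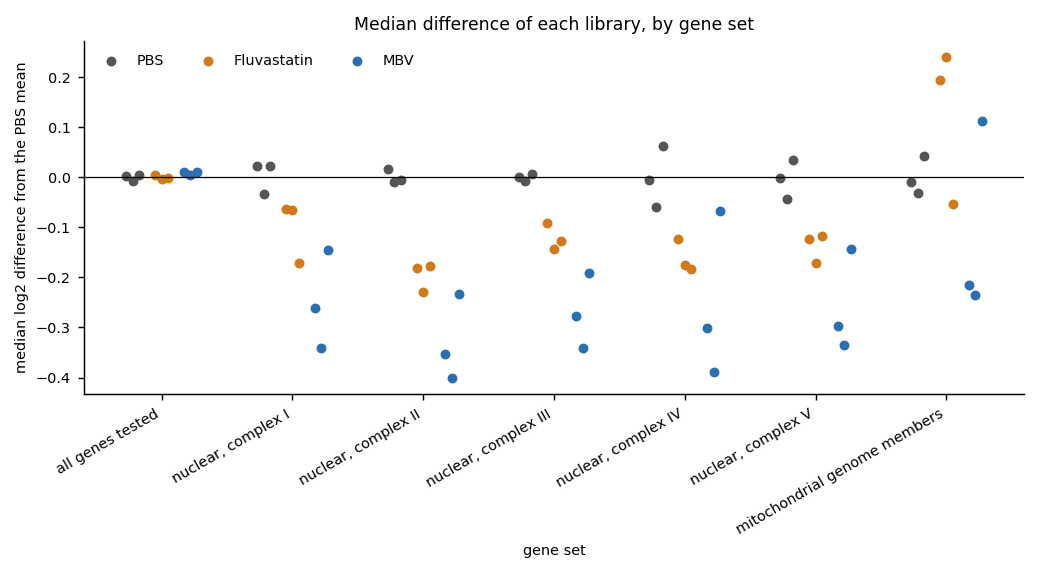
Median log2 difference from the PBS mean (vertical axis) in each of the 9 libraries, over all 15322 genes tested, over the nuclear subunits of each complex and over the 13 mitochondrial members (horizontal axis); each point is 1 library. All-gene medians sit at 0 within 0.01 in every library, while the nuclear complexes sit below 0 in all fluvastatin and MBV libraries, and MBV replicate 3 is the highest MBV point in every nuclear complex.

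Complex I, the largest complex, had 36 nuclear subunits measured. With fluvastatin 13 were lower and 4 higher, and with MBV 23 were lower and none higher, with median log2 fold changes of -0.09 and -0.26. The 7 nuclear core subunits, which carry the flavin and the iron-sulphur clusters, included 4 lower with fluvastatin and 5 lower with MBV. Ndufs1, the largest core subunit, measured 101, 101 and 101 CPM (counts scaled to library size by TMM) with PBS, 86.9, 88.5 and 86.0 with fluvastatin, and 79.0, 77.7 and 82.9 with MBV. No treated library reached the PBS libraries, and the log2 fold change was -0.21 (SE 0.04, FDR 0.0077, edgeR) with fluvastatin and -0.34 (SE 0.04, FDR 0.0012) with MBV. The fluvastatin call was lost under an offset for transcript length and GC content, at -0.12 (FDR 0.076). The core subunit Ndufs8 was not called in either comparison (0.08 with SE 0.07 and -0.04 with SE 0.05). Among the 29 supernumerary subunits, which surround the core, 9 were lower and 4 higher with fluvastatin, and 18 were lower with MBV.

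Ndufb5, a supernumerary subunit of the membrane arm (chr3:32791139-32805715, GRCm39), measured 39.0, 38.2 and 39.9 CPM with PBS. It measured 30.3, 30.2 and 30.4 CPM with fluvastatin and 30.6, 27.5 and 31.7 with MBV. Both treated groups lay wholly below PBS, with log2 fold changes of -0.36 (SE 0.05, FDR 0.0021, edgeR) and -0.39 (SE 0.06, FDR 0.0031). Ndufb6, another membrane-arm subunit, had the lowest log2 fold change of complex I with MBV, -0.72 (SE 0.11, FDR 0.0031), and -0.46 (SE 0.09, FDR 0.0096) with fluvastatin. It shares 1289 bases with Smim27 on the opposite strand, and Ndufb5 shares 616 bases with Mrpl47, so reads of the partners cannot be told apart where counting ignored strand, which the sources used here do not give.

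The 4 complex I subunits higher with fluvastatin were Ndufa3, Ndufa5, Ndufa13 and Ndufb7. Ndufb7 (chr8:84293300-84298255, GRCm39) measured 12.3, 11.7 and 11.7 CPM with PBS, 17.1, 16.6 and 14.0 with fluvastatin, and 12.2, 13.2 and 14.8 with MBV. Fluvastatin lay wholly above PBS (log2 fold change 0.42, SE 0.09, FDR 0.013, edgeR), while the MBV range overlapped it (0.16, SE 0.09, FDR 0.18). The fluvastatin call was lost under an offset for transcript GC content, at 0.28 (FDR 0.073), and without fluvastatin replicate 2 (FDR 0.051). Under an offset for transcript length, Ndufb7 was called higher with MBV as well, at 0.28 (FDR 0.028, edgeR). Ndufa5, Ndufa3 and Ndufa13 gave 0.31 (SE 0.09), 0.26 (SE 0.08) and 0.23 (SE 0.07) with fluvastatin and were not called with MBV. Each of these 3 calls was lost without PBS replicate 1, 2 or 3, without fluvastatin replicate 1 or 2, and under the GC offset. Ndufa13 shares 8379 bases with Yjefn3 on the same strand, and Ndufa3 shares 490 bases with Oscar and 689 with Tfpt on the opposite strand. In all, 33 nuclear members overlap another protein-coding gene, 4 of them on the same strand, and how such reads were counted is not given in the sources used here.

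Complex II joins the respiratory chain to the TCA cycle. Of its 4 subunits, 3 were lower with fluvastatin and 4 of 4 with MBV, with medians of -0.20 and -0.35. Sdhd, the small membrane anchor subunit, measured 37.7, 33.8 and 37.3 CPM with PBS, 28.9, 28.4 and 28.2 with fluvastatin, and 28.2, 26.6 and 31.1 with MBV. Sdhd thus differed from PBS by a log2 fold change of -0.34 (SE 0.06, FDR 0.0043, edgeR) with fluvastatin and -0.35 (SE 0.07, FDR 0.0083) with MBV. Sdha, the flavoprotein that oxidises succinate, measured 276, 268 and 274 CPM with PBS, 256, 253 and 248 with fluvastatin, and 217, 220 and 233 with MBV. It was lower with MBV (-0.30, SE 0.04, FDR 0.0018), and with fluvastatin the FDR was 0.053 at a log2 fold change of -0.11 (SE 0.04) although the groups did not overlap. Of the assembly factors, Sdhaf3 and Sdhaf4 were lower in both comparisons, with Sdhaf4 at -0.56 (SE 0.12, FDR 0.012) and -0.70 (SE 0.15, FDR 0.011). Without PBS replicate 1 the fluvastatin call of Sdhaf4 was lost (FDR 0.060), and under the GC offset both calls of Sdhaf3 were (FDR 0.076 and 0.079).

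Complex III had 9 nuclear subunits, of which 3 were lower with fluvastatin and 6 with MBV. Uqcrfs1, the Rieske iron-sulphur protein (chr13:30724291-30729345, GRCm39), measured 45.5, 48.8 and 53.1 CPM with PBS, 35.3, 36.3 and 39.4 with fluvastatin, and 34.4, 33.4 and 36.5 with MBV. Both treated groups lay below PBS, at -0.41 (SE 0.07, FDR 0.0047, edgeR) and -0.51 (SE 0.07, FDR 0.0018). Uqcrh, the hinge protein, was not called, at 0.12 (SE 0.08) and 0.06 (SE 0.07).

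Complex IV had 16 nuclear subunits, of which 6 were lower and 1 higher with fluvastatin, and 8 lower and none higher with MBV. Cox7a2, the widely expressed form of subunit 7a, measured 54.8, 52.4 and 57.4 CPM with PBS, 40.6, 44.7 and 46.0 with fluvastatin, and 38.8, 39.6 and 41.1 with MBV. Every treated library lay below PBS, at a log2 fold change of -0.32 (SE 0.06, FDR 0.0069, edgeR) with fluvastatin and -0.47 (SE 0.05, FDR 0.001) with MBV. Ndufa4, an enzyme subunit once counted with complex I, measured 100, 95.0 and 106 CPM with PBS, 82.9, 82.9 and 82.0 with fluvastatin, and 65.9, 65.4 and 84.8 with MBV. No treated library reached PBS, and the log2 fold changes were -0.28 (SE 0.05, FDR 0.0049) and -0.49 (SE 0.10, FDR 0.0084). Cox5b, which was lower with MBV (-0.33, SE 0.05, FDR 0.0035), was not called with fluvastatin (-0.11, SE 0.05, FDR 0.14).

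Cox6b1, which joins the monomers of the enzyme at the intermembrane side (chr7:30316286-30325576, GRCm39), was the complex IV subunit that rose with fluvastatin. It measured 49.4, 51.1 and 50.4 CPM with PBS, 63.8, 63.2 and 58.9 with fluvastatin, and 53.5, 52.2 and 60.8 with MBV. The log2 fold change was 0.30 (SE 0.05, FDR 0.0046, edgeR) with fluvastatin and 0.13 (SE 0.06, FDR 0.13) with MBV. All MBV libraries also lay above the PBS libraries. Under an offset for transcript length, Cox6b1 was called higher with MBV too, at 0.25 (FDR 0.0079, edgeR).

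The isoforms known from heart and skeletal muscle were close to the count minimum. Per kilobase of transcript in PBS, Cox6a2, Cox7a1 and Cox8b stood at 0.994, 2.46 and 0.540 CPM, while the widely expressed Cox6a1, Cox7a2 and Cox8a stood at 85.5, 67.4 and 153. Cox8b was called lower with MBV (-1.41, SE 0.45, FDR 0.045, edgeR) from 0.746, 1.30 and 1.44 CPM with PBS to 0.183, 0.686 and 0.472. This call was lost without any 1 of PBS replicates 1, 2 and 3 or MBV replicates 1 and 3, at FDRs from 0.051 to 0.12. Ndufa4l2, the paralogue of Ndufa4 that is known as a target of hypoxia signalling, went the other way. Its level was also close to the count minimum, at 0.573 CPM per kilobase in PBS. It measured 0.584, 0.511 and 0.568 CPM with PBS, 1.20, 1.42 and 0.977 with fluvastatin, and 1.32, 1.23 and 1.03 with MBV, with log2 fold changes of 1.11 (SE 0.26, FDR 0.015) and 1.09 (SE 0.23, FDR 0.0099). The fluvastatin call was lost without fluvastatin replicate 2 (FDR 0.058), PBS replicate 1 (0.059) or PBS replicate 2 (0.054). Its annotation shares 758 bases with Shmt2 on the opposite strand.

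**Figure D2:**
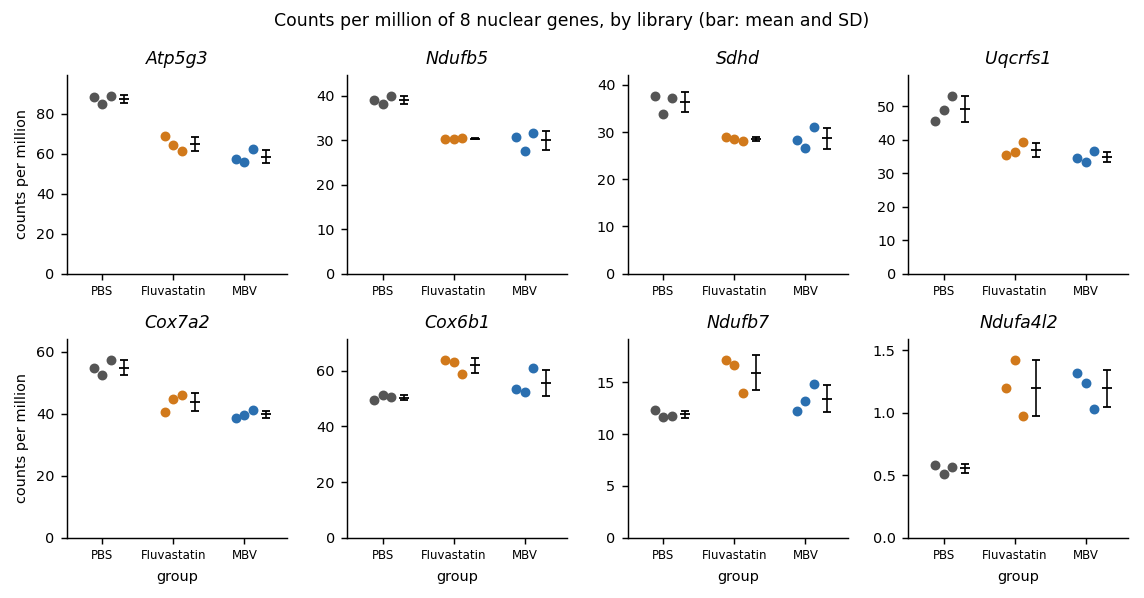
CPM (vertical axis, TMM-scaled, starting at 0) of 8 nuclear genes in the PBS, fluvastatin and MBV libraries (horizontal axis); points are libraries and bars the mean and SD of 3. Atp5g3, Ndufb5, Sdhd, Uqcrfs1 and Cox7a2 lie lower in both treated groups, Cox6b1 and Ndufb7 lie higher with fluvastatin, and Ndufa4l2 lies higher in both.

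Complex V had 17 nuclear subunits, of which 6 were lower and 1 higher with fluvastatin, and 11 lower and none higher with MBV. Atp5g3, which encodes the c subunit of the rotor ring (chr2:73738791-73741670, GRCm39), measured 88.3, 85.1 and 89.1 CPM with PBS, 68.8, 64.4 and 61.5 with fluvastatin, and 57.6, 56.1 and 62.3 with MBV. Both groups lay wholly below PBS, at -0.43 (SE 0.05, FDR 0.0019, edgeR) and -0.59 (SE 0.05, FDR 0.00088) on the log2 scale. The other 2 genes for the same c subunit protein, Atp5g1 and Atp5g2, were lower with MBV (-0.35 and -0.26, SE 0.04 and 0.05) and not called with fluvastatin (-0.15 and -0.17, SE 0.06 each). The call of Atp5g2 was lost under an offset for transcript length (FDR 0.087). Of the 5 subunits of the F1 head, which catalyses ATP synthesis, 2 were lower with fluvastatin and 4 with MBV, and of the 4 subunits of the peripheral stalk 1 was lower in each, Atp5pb, whose fluvastatin call was lost without PBS replicate 1. Atp5b, the catalytic beta subunit, had the highest nuclear level per transcript kilobase (381 CPM per kilobase in PBS), and measured 739, 727 and 737 CPM under PBS against 643, 614 and 710 under MBV (-0.17 on the log2 scale, SE 0.06, FDR 0.0499), a call lost without any 1 of the PBS libraries or MBV replicates 1 and 2, with FDRs from 0.10 to 0.15. Atp5j2, a small subunit of the membrane part, rose with fluvastatin, from 15.7, 15.0 and 15.8 CPM to 19.7, 21.5 and 19.6 (0.39, SE 0.07, FDR 0.0056), and measured 15.7, 13.9 and 17.9 with MBV.

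**Figure D3:**
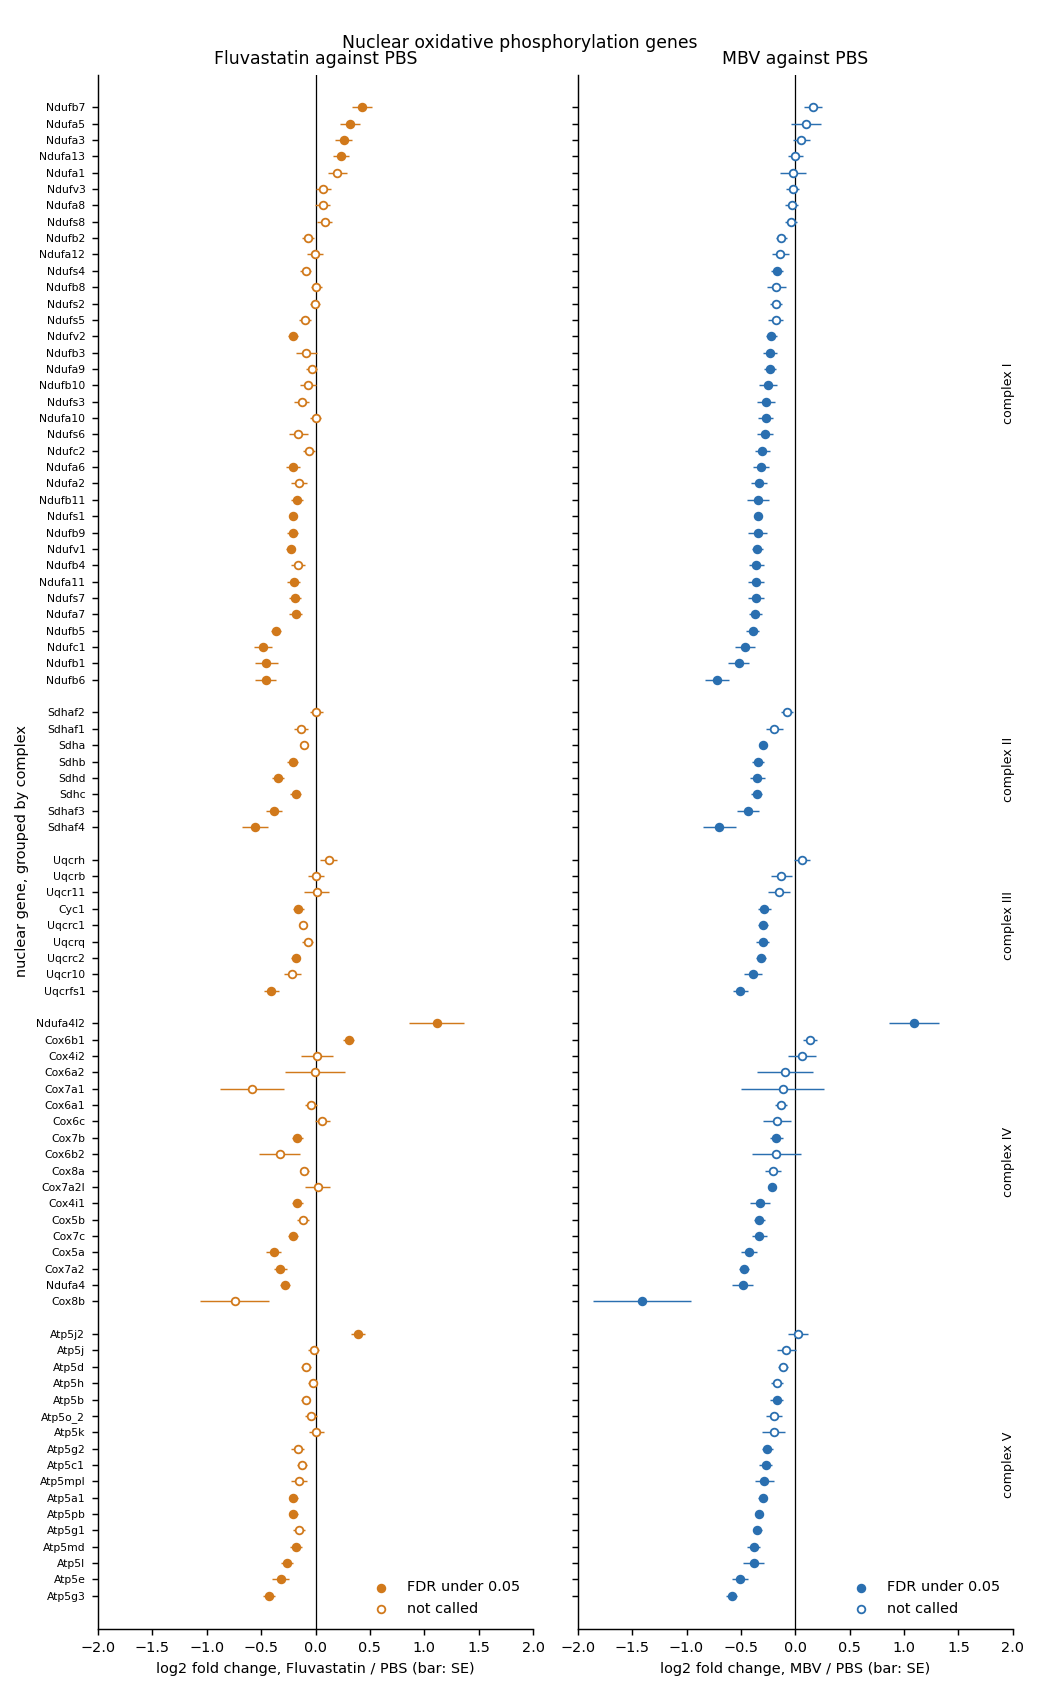
Log2 fold change against PBS (horizontal axis, bars are SE) of each of the 88 nuclear members, grouped by complex on the vertical axis, for fluvastatin (left) and MBV (right); filled points passed FDR under 0.05. Lower calls fill most of the MBV panel (55 of 88), while the fluvastatin panel holds 33 lower and 7 higher calls.

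MBV was also compared with fluvastatin, within a single numbered set of libraries. No nuclear member was called (0 of 88, edgeR; background 0.0326% of all genes, with 0.00653% higher and 0.0261% lower), 22 had an unadjusted p under 0.05 and DESeq2 called 0 with 16 at p under 0.05. Point estimates lay below zero for 81 of 88 members, and for 7443 of all 15322 genes. The median was -0.13 with all libraries and -0.20 without MBV replicate 3, when 52 of 88 had an unadjusted p under 0.05 and none was called. Ndufa10, an accessory subunit of complex I and among the 4 members with the smallest p, measured 89.4, 89.1 and 83.2 CPM with fluvastatin and 74.2, 65.5 and 78.4 with MBV (log2 fold change -0.26, SE 0.07, FDR 0.28).

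The 13 protein-coding genes of the mitochondrial genome encode core subunits of complexes I, III, IV and V. Fluvastatin gave 4 higher (30.8%) and 2 lower (15.4%), where all genes gave 12.2% and 12.1%. MBV gave 2 of each (15.4%), close to the 15.9% higher and 17.4% lower among all genes. The median log2 fold changes were 0.13 and -0.11, and leaving out each library in turn moved them from 0.06 to 0.22 and from -0.23 to -0.05. Their summed share of all counts was 3.04%, 2.96% and 3.17% for PBS, 3.04%, 3.30% and 2.87% for fluvastatin, and 2.58%, 2.54% and 3.01% for MBV. The group means were 3.06% ± 0.107, 3.07% ± 0.221 and 2.71% ± 0.259 (SD, n = 3 each). The treated and PBS ranges of this share overlapped in both comparisons. The nuclear members together held 0.512% to 0.535% of counts with PBS, 0.472% to 0.483% with fluvastatin and 0.429% to 0.470% with MBV. The mitochondrial levels were far higher per length, from 224 CPM per kilobase for mt-Nd6 to 6180 for mt-Co1 in PBS.

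Against fluvastatin, MBV gave 0 calls among the 13 (edgeR), with 1 at an unadjusted p under 0.05, while DESeq2 called 0 with 9 at p under 0.05. All 13 point estimates lay below zero there, with a median of -0.23, and without MBV replicate 3 edgeR still called 0 with 13 at p under 0.05.

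Calls within the mitochondrial genome went in both directions. mt-Atp8, a small subunit of complex V, measured 138, 152 and 141 CPM with PBS, 241, 273 and 188 with fluvastatin, and 176, 174 and 219 with MBV. It rose in both, by 0.71 (SE 0.12, FDR 0.0047, edgeR) and 0.39 (SE 0.09, FDR 0.014) on the log2 scale, the latter call being lost without PBS replicate 1 (FDR 0.060). mt-Nd6, the complex I subunit encoded on the other strand, rose by 0.48 (SE 0.08, FDR 0.0056) and 0.28 (SE 0.08, FDR 0.028), and its MBV call was lost without PBS replicate 1 (FDR 0.079) or 2 (FDR 0.091). mt-Nd4l and mt-Nd5, both subunits of the membrane arm of complex I, rose with fluvastatin by 0.45 (SE 0.09, FDR 0.0091) and 0.30 (SE 0.08, FDR 0.029), and were not called with MBV. The call of mt-Nd5 was lost without fluvastatin replicate 2 (FDR 0.10) or any 1 PBS library (FDR 0.052 to 0.098). mt-Co3, a core subunit of complex IV, measured 4819, 4599 and 4916 CPM with PBS, 3713, 4192 and 3937 with fluvastatin, and 3289, 3250 and 3886 with MBV. It was lower in both, at -0.27 (SE 0.06, FDR 0.017) and -0.47 (SE 0.08, FDR 0.0048), the former call being lost without PBS replicate 1 (FDR 0.090). mt-Nd3, another complex I subunit, was lower too, at -0.32 (SE 0.06, FDR 0.0075) and -0.44 (SE 0.11, FDR 0.021). Its MBV call was lost without MBV replicate 1 or 2 or PBS replicate 1 or 3 (FDR 0.055 to 0.080).

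An offset for transcript GC content, chosen after seeing the data, changed these calls. With it, 9 members were higher and none lower with fluvastatin, and 3 higher and none lower with MBV, and the medians became 0.35 and 0.11, so that the MBV median changed sign. mt-Co3 and mt-Nd3 were then not called, at -0.08 and -0.03 with fluvastatin and -0.27 and -0.16 with MBV. The mitochondrial genes have a median GC content of 37.1%, against 51.4% for the nuclear members and 50.3% for all genes, and only 113 nuclear genes lie at or under that median, so the offset rests on few genes there. Leaving out MBV replicate 3 gave 2 higher and 8 lower with MBV, and leaving out PBS replicate 1 gave 1 call. Dividing by the inflation left 0 mitochondrial calls by edgeR, with 2 and 0 at an unadjusted p under 0.05.

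The share of each gene among the 13 mitochondrial genes' counts does not depend on library scaling. mt-Atp8 took 0.452%, 0.511% and 0.444% of these counts with PBS, 0.785%, 0.815% and 0.654% with fluvastatin, and 0.699%, 0.700% and 0.717% with MBV, a ratio to PBS of 1.6 and 1.5. mt-Nd6 stood at 1.37 and 1.39 times, mt-Nd4l at 1.34 and 1.30 times, and mt-Nd5 at 1.22 and 1.20 times the PBS share. mt-Co3 fell from 15.8%, 15.5% and 15.5% to 12.1%, 12.5% and 13.7% with fluvastatin and 13.1%, 13.1% and 12.7% with MBV, and mt-Nd3 stood at 0.79 and 0.84 times its PBS share. For each of these 6 genes the treated and PBS libraries did not overlap, and the exact permutation test gave p = 0.1, the smallest that 3 against 3 libraries allow. These 6 are the genes called with fluvastatin from the same counts, so their shares are no separate test of those calls. In all, 7 of the 13 shares did not overlap with fluvastatin (5 above PBS, 2 below) and 10 of 13 with MBV (8 above, 2 below). How many of all genes did not overlap was not computed, so these counts have no background beside them. The 24.4% and 33.2% of all genes called in the fits follow another criterion. mt-Cytb lay above PBS in both (1.08 and 1.09 times), and mt-Nd1, mt-Nd2 and mt-Nd4 with MBV (1.06, 1.18 and 1.04 times). The shares have a fixed total, so a lower share of mt-Co3 or mt-Nd3 raises those of the others. A share above PBS is therefore not a higher level. In 1 fit of all 9 libraries, mt-Nd1, mt-Nd4 and mt-Cytb gave log2 fold changes of -0.10, -0.13 and -0.06 with MBV. mt-Nd2 gave 0.05, and none of these genes was called. Between MBV and fluvastatin no gene's share had an exact permutation p under 0.2, with ratios from 0.94 to 1.06. Since the PBS libraries belong to one numbered set and the others to another, set and treatment cannot be told apart here.

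**Figure D4:**
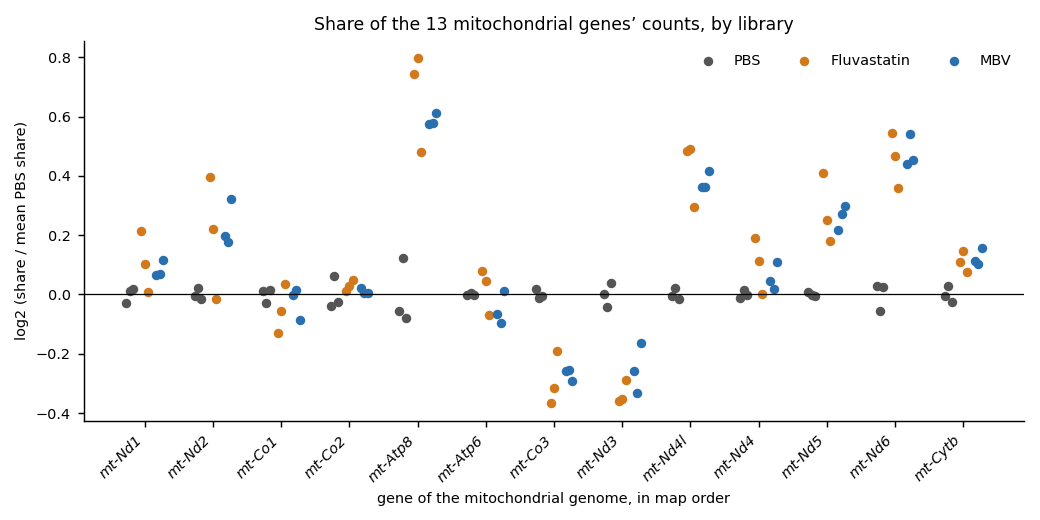
Share of the 13 mitochondrial genes' counts in each library, as the log2 ratio to the mean PBS share (vertical axis), with genes in map order (horizontal axis) and 1 point per library. The fluvastatin and MBV points lie above all PBS points for mt-Atp8, mt-Nd4l, mt-Nd5 and mt-Nd6 and below them for mt-Co3 and mt-Nd3.

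Several mitochondrial genes share bases with a neighbour. The overlap of mt-Atp8 with mt-Atp6 is 43 bases, and that of mt-Nd4l with mt-Nd4 is 7 bases. mt-Atp8 and mt-Nd4l, which rose with fluvastatin, are shown whole, because a read within the shared bases (capitals) could be assigned to either gene. The sequences are from GRCm39, 5′ to 3′.
mt-Atp8, chrM:7766-7969, plus strand: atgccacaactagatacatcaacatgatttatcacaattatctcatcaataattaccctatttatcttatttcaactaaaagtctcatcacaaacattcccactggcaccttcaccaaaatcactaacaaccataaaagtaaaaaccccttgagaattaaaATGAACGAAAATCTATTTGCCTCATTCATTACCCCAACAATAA
mt-Nd4l, chrM:9877-10173, plus strand: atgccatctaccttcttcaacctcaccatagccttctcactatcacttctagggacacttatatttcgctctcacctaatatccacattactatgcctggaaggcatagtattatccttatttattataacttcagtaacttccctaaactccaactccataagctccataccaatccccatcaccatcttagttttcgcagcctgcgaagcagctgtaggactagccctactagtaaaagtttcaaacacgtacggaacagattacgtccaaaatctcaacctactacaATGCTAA
mt-Atp8 has 161 bases outside the overlap, and mt-Nd5 and mt-Nd6 share 14 bases on opposite strands. The partner genes mt-Atp6 and mt-Nd4 were called in neither comparison with PBS. mt-Atp6 gave log2 fold changes of 0.04 with fluvastatin and -0.24 with MBV. In 1 fit of all 9 libraries, mt-Nd4 gave 0.12 and -0.13. The rises of mt-Atp8 and mt-Nd4l were thus not shared by the genes they overlap. The share of these overlaps in the counts was not tested.

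Lists of other genes of mitochondrial and energy metabolism were counted in the same way, and the genes named from them were picked after their values were seen. All genes gave 12.1% lower and 12.2% higher with fluvastatin, and 17.4% lower and 15.9% higher with MBV. Of 78 mitochondrial ribosome genes, 6 (7.69%) were lower with fluvastatin and 21 (26.9%) with MBV, and none was higher. Of 50 assembly factors, 6 (12%) and 14 (28%) were lower and 2 were higher in each, so the fluvastatin shares of both lists were at or under that of all genes. Of 31 genes for mitochondrial DNA expression, 8 (25.8%) and 9 (29%) were lower, while 0 and 1 (Top1mt) were higher. Lrpprc, which stabilises mitochondrial messenger RNA, fell from 98.6, 101 and 95.6 CPM to 83.0, 76.1 and 79.9 with fluvastatin (-0.30, SE 0.05, FDR 0.0043, edgeR) and to 71.2, 63.9 and 68.5 with MBV (-0.54, SE 0.05, FDR 0.00096). Tfam, the factor that packages and transcribes mitochondrial DNA, was lower in both, at -0.25 (SE 0.07, FDR 0.032) and -0.22 (SE 0.05, FDR 0.013), and both calls were lost under the GC offset and without PBS replicate 1, the fluvastatin call also without PBS replicates 2 or 3 or fluvastatin replicates 2 or 3, and the MBV call without MBV replicate 1. Of 18 TCA cycle genes, 4 (22.2%) were lower and 1 (5.56%) higher with fluvastatin and 8 (44.4%) lower with MBV. Of 21 genes for mobile carriers and exchange, 7 (33.3%) and 11 (52.4%) were lower and 2 (9.52%) were higher in each.

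Of 22 glycolysis genes, 8 (36.4%) were higher and 4 (18.2%) lower with fluvastatin, and with MBV 5 (22.7%) were higher and 3 (13.6%) lower. The all-gene shares were 12.2% higher and 12.1% lower with fluvastatin, and 15.9% higher and 17.4% lower with MBV. Gapdh, the glyceraldehyde phosphate dehydrogenase of glycolysis, measured 668, 663 and 643 CPM with PBS, 927, 998 and 983 with fluvastatin, and 797, 774 and 900 with MBV. All treated libraries lay above PBS, by 0.56 (SE 0.05, FDR 0.00082, edgeR) and 0.32 (SE 0.06, FDR 0.0072). Hk1, a hexokinase, rose by 0.37 (SE 0.05, FDR 0.0023) and 0.38 (SE 0.07, FDR 0.0045), while Ldhb, a lactate dehydrogenase subunit, was lower, at -0.29 (SE 0.06, FDR 0.0086) and -0.41 (SE 0.06, FDR 0.0021). Eno1b was also called lower in both. Log2 fold changes of the list ran from -2.15 to 0.56 with fluvastatin and from -2.69 to 0.38 with MBV, with medians of 0.19 and 0.01. Among 17 regulators, 3 (17.6%) were lower and 2 (11.8%) higher with fluvastatin, and 5 (29.4%) lower and 4 (23.5%) higher with MBV. The higher share with fluvastatin was under that of all genes. Ppargc1a, a coactivator of mitochondrial biogenesis, was not called (-0.09, SE 0.04 and -0.06, SE 0.08), Esrra, the nuclear receptor of the same programme, was lower (-0.34, SE 0.06, FDR 0.0055 and -0.46, SE 0.08, FDR 0.0049) and Ppargc1b was higher (0.31, SE 0.08, FDR 0.024 and 0.35, SE 0.07, FDR 0.0091). Both calls of Ppargc1b were lost under the GC offset, and that with fluvastatin also without PBS replicate 1 or 3.

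**Figure D5:**
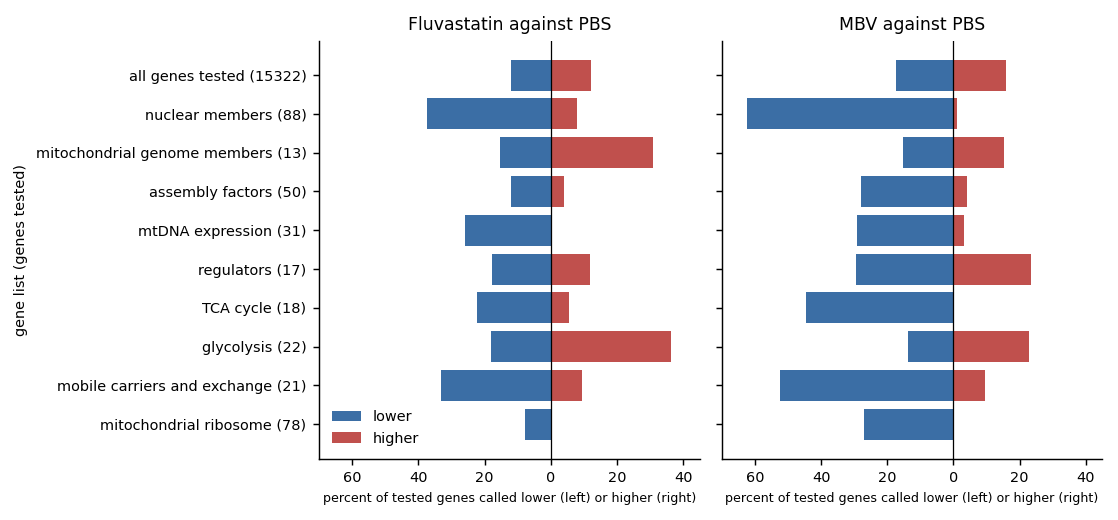
Percent of tested genes called lower (left of 0) and higher (right of 0) for all genes, the nuclear and mitochondrial members and 7 lists of related genes, for fluvastatin (left) and MBV (right); the number of tested genes is in parentheses. Nuclear members reach 62.5% lower with MBV, and glycolysis is the list with the highest share of higher calls with fluvastatin (36.4%).

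Markers in 11 cell type lists were counted in the same comparisons. Beside them, all genes gave 12.1% lower and 12.2% higher with fluvastatin, and 17.4% lower and 15.9% higher with MBV. Of 14 photoreceptor markers, 4 were lower with MBV, namely Pde6b, Sag, Cnga1 and Nrl. With fluvastatin, Rcvrn and Nr2e3 were higher and Sag lower, near the shares of all genes. The summed level of the 14 photoreceptor markers was 24075 to 26070 CPM with PBS, 22807 to 25989 with fluvastatin and 19101 to 25507 with MBV. The MBV range reached that of PBS through MBV replicate 3 alone, as the other MBV libraries stood at 21546 and 19101. Of 9 Müller glia markers, 4 were lower with fluvastatin and 3 with MBV, and their summed level of 3737 to 4279 CPM with PBS lay above 2273 to 3448 with fluvastatin and 2142 to 3349 with MBV. Glul, called in neither comparison, held 2573, 2477 and 1914 CPM of the PBS sums. It measured 1979, 1045 and 817 with fluvastatin and 1146, 613 and 1941 with MBV. The median log2 fold change of the 9 markers was -0.18 with fluvastatin and -0.03 with MBV. Vim lay above PBS (143 to 178) in MBV replicates 1 and 2 (246 and 330) and below it in replicate 3 (133). Of 5 red blood cell markers, 3 were higher in each comparison, with sums of 6.5 to 8.20 CPM under PBS, 13.2 to 17.0 under fluvastatin and 14.3 to 16.9 under MBV. Of 9 retinal pigment epithelium and melanocyte markers, 6 were lower and Ttr higher in both comparisons. Rlbp1 is in both this list and the Müller glia list, and is counted among the lower calls of each. Lens markers rose with MBV (5 of 7), with summed levels of 60 to 164 CPM against 1.98 to 6.42 with PBS. With fluvastatin, 2 of 9 ganglion cell markers (Sncg, Thy1) and 2 of 9 amacrine and horizontal markers were higher. Lower there were 2 of 7 bipolar markers, 1 of 8 pericyte and smooth muscle markers and 1 of 8 myeloid markers. With MBV, the ganglion cell marker Isl1 and 2 bipolar markers were lower. Higher there were 1 amacrine, 1 pericyte and 1 skeletal muscle marker, and no myeloid marker was called. The part of these markers in the subunit results was not tested.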

How the data were processed

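The deposited tables hold raw read counts per gene, which the authors made with CLC Genomics Workbench from paired reads on the mouse genome (GRCm39) and did not normalise. The strand setting and the handling of reads that map to several places are not given in the sources used here. Only the 9 PBS, fluvastatin and MBV libraries were used; 6 count columns of the combined treatment name no library and were not used, and 3 comparisons that need them were not made. The tables' fold change and p-value columns, which hold the authors' own comparisons, were not used.

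Genes with 10 or more counts in at least 3 of the 9 libraries were tested with edgeR 4.0.16 (R 4.3.3), each comparison fitted on its 6 libraries with TMM scaling, and Benjamini-Hochberg adjustment ran over all 15322 genes with FDR under 0.05. DESeq2 1.42.0 was an alternative. The standard error is the log2 fold change divided by the square root of the F statistic. CPM values use TMM over the 9 libraries. The test was checked on simulated data. Library totals were 21349516 to 30992040 counts. Members, gene lists and tests were chosen with earlier results of these data known. The genes named were the mitochondrial genes, the 4 nuclear members with the smallest p in each direction per comparison, paired isoforms, the extremes of level and the names that are no subunit; other genes named (Ndufs1, Ndufs8, Ndufa3, Ndufa5, Ndufa13, Ndufb6, Atp5g2, and those of lists and markers) were chosen after their values were seen. Promoter motifs were searched by exact letters, with the NRF1 motif shortened to 9 letters after a first search. Replicate numbers of the labels were not taken as pairs: the correlations of same-numbered libraries' deviations ran from -0.46 to 0.22. One marker of the photoreceptor list is not reported here.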

Additional observations from a re-analysis of the deposited data

How the results depend on the processing

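Nuclear calls with fluvastatin (40) and MBV (56) stayed within 1.5 times under DESeq2 size factors, library totals, other count minimums, length and GC offsets and DESeq2. The offset for length and GC gave 28 and 46. The nuclear members had a median transcript length of 1090 bases, against 3487.5 for all genes. The offset for length alone gave 31 lower and 7 higher with fluvastatin, and 50 lower and 4 higher with MBV. The median log2 fold changes were then -0.12 and -0.20. With the replicate number as a block, whose numbers do not pair the samples, the nuclear calls were 28 and 52, the mitochondrial calls 6 and 4, and MBV against fluvastatin gave 0 of each. Leaving out each library in turn gave 17 to 40 nuclear calls with fluvastatin and 41 to 69 with MBV, 4 to 9 and 1 to 10 mitochondrial calls, and 0 for MBV against fluvastatin. Alternatives chosen after seeing the data: dividing the statistics by the genomic inflation left 0 calls of either kind in both comparisons with PBS, and the offset for GC gave 9 and 3 mitochondrial calls, with length added 9 and 5. DESeq2 called 7 mitochondrial genes with MBV, 2 higher and 5 lower, against 4. Cox7b with MBV changed sign under the offset for length and GC, from -0.17 to 0.043, and was then not called; the cause was not tested. Among named genes 132 results lost their call in an alternative and 52 gained one, of 2391 recomputed. The mitochondrial share held the 13 protein-coding genes alone, so there was no ribosomal RNA gene to leave out of it. The comparisons that need the combined treatment were not run.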
